A study of Mus musculus with 66 samples.

Results

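H3K36me3 was compared between ethanol and water in 22 prefrontal cortex libraries of adolescent mice, both sexes in 1 fit. The regions examined were runs of 200-bp windows on chromosomes 1 to 19 that lay under a listed SICER island in every one of the 22 H3K36me3 libraries. 5566 such regions were found, 7.95 Mb in all. The series holds 66 samples, and these 22 libraries were 12 ethanol libraries (6 male, 6 female) and 10 water libraries (5 male, 5 female). All were adolescent DBA/2J mice, an inbred strain. The ethanol groups were gavaged at 4 g/kg with a 25% ethanol solution in cycles of 2 dosing days and 2 days off from postnatal day (PND) 29 to PND 42, and the water groups received water on the same days. Cortex was collected 24 h later. Each library came from a pool of 3 mice of 1 sex and treatment, and 8 immunoprecipitations of each pool were combined before sequencing. The sample is bulk cortex, so a change in the mix of cell types and a change of the mark within a cell type cannot be told apart.

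H3K36me3 is the trimethyl mark that SETD2 writes behind elongating RNA polymerase II. It is usually found over the bodies of transcribed genes, more towards their 3′ ends, where readers such as DNMT3A and MORF4L1 bind it. H3K9me3, the other mark of this series, is written by SETDB1 and SUV39H enzymes and covers silenced repeats. LINE-1 elements are retrotransposons with a pair of reading frames, the first for an RNA-binding protein and the second for an endonuclease and reverse transcriptase. Many near-identical copies lie in the mouse genome, mostly between genes or in introns, and in most tissues they are kept silent.

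Most of the regions were pieces of LINE-1 and not bodies of transcribed genes. The reference assembly marked a median 100% of their bases as repeats (mean 89.5%, against 33.5% of chromosomes 1 to 19), and 4607 of 5566 regions (82.8%) aligned to a single element at chr1:7328759-7336360 on the minus strand of GRCm38, with a median identity of 94.4%. This element has open reading frames of 371 and 1281 codons, 40 bp apart, and was named LINE-1 from these frames, since no repeat annotation was used. The alignment was chosen after the repeat content had been seen. The regions did not spread evenly along the element. The midpoints of 2625 alignments lay in the first frame, 1742 in the second, 1 before the frames and 88 after them. Coverage peaked 1005 bp from the start of the first frame, where 3851 alignments overlapped. The stretch that most regions shared, 918 bp from that start, matched 3738 regions (67.2%) with a median identity of 92.7%. It is shown here with the central 200 bp of 3 regions in each direction, because these sequences show what the compared regions consist of. Those higher in ethanol are the 3 of smallest p, and those lower are 3 of the 4 of smallest p, without the region near Mc4r, which ranks before that near Ghitm. Capitals mark CG, the dinucleotide that DNA methyltransferases modify, which reads the same on both strands.
most shared 200 bp of the element, chr1:7333243-7333442, minus strand: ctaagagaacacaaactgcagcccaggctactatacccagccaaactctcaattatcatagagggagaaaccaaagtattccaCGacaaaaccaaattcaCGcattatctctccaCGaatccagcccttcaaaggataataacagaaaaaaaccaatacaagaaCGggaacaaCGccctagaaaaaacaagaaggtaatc
near Rpia, chr6:70309501-70309700, plus strand: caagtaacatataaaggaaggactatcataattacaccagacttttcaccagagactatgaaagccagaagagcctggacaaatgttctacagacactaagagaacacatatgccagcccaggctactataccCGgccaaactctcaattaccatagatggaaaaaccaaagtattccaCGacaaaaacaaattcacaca
near Fat3, chr9:16858801-16859000, plus strand: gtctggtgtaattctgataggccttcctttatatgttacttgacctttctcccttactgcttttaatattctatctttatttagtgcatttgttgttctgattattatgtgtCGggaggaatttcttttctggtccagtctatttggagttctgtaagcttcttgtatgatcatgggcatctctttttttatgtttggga
near Ppp4r2, chr6:101009501-101009700, plus strand: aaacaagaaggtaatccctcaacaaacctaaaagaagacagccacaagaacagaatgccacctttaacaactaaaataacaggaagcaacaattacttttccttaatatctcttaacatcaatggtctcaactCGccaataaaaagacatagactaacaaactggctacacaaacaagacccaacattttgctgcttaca
near Pelp1, chr11:70381301-70381500, plus strand: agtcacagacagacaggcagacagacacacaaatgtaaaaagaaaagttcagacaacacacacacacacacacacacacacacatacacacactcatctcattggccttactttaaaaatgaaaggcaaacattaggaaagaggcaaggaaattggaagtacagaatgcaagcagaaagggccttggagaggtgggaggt
near Vmn1r59, chr7:5443201-5443400, plus strand: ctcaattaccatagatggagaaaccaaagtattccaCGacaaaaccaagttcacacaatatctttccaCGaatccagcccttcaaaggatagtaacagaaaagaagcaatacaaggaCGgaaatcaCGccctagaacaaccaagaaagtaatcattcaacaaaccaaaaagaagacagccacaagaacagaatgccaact
near Ghitm, chr14:37592501-37592700, plus strand: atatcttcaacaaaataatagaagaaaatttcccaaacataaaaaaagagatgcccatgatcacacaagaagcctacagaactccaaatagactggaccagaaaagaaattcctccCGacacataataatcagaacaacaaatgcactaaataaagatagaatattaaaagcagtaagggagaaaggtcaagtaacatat

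The sequences near Rpia, Fat3, Ppp4r2, Vmn1r59 and Ghitm come from copies of the element, in either orientation. That near Pelp1 aligned to no part of it and holds a CA repeat. At least 1 CG was present in the central 200 bp of 73.4% of all regions, with a median of 1, whereas the shared stretch of the element holds 5. The study kept uniquely placed reads for H3K9me3, and how reads matching several places were handled for H3K36me3 is not given in the sources used here. Every value of a LINE-1 region below is therefore uncertain as to which copy it belongs to.

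**Figure D1:**
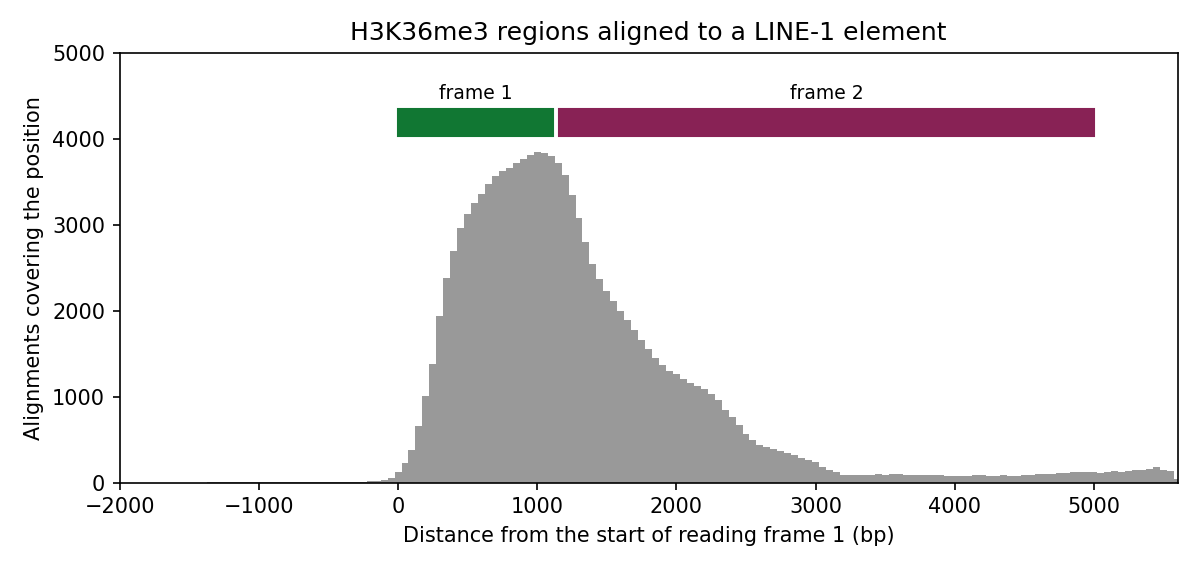
Number of alignments of H3K36me3 regions (vertical axis) at each distance in bp from the start of the first reading frame of the LINE-1 element (horizontal axis), with the frames as bars. The pile reaches 3851 alignments 1005 bp from the start, near the end of the first frame, and little of it lies before the frames or beyond the middle of the second.

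Per library, the lists held 18187 to 56195 islands over 61.6 to 119 Mb. They summed to 1.60 to 4.57 M ChIP reads and 2.35 to 4.20 M input reads. The regions took 0.465 to 0.985 M ChIP reads, and a region had a median of 22 to 47 reads per library, so that the counting error of a single region in 1 library was large. No pair of libraries within a group agreed within sampling noise, with chi-square per degree of freedom of at least 2.25 over 50 pairs. 3 libraries stood apart. Male ethanol replicate 4 and female water replicate 4 had 41.7% and 38.2% of their island reads in the regions, where the other libraries of their groups had at most 23.5%, and male ethanol replicate 6 had the smallest enriched length, 7.41 Mb. The counts of regions, genes and interactions below are also given without these 3 libraries.

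Enrichment over input was slight. The fold over input that the lists give, averaged over the 22 libraries, had a median of 1.21 across regions, and 5 to 95% of the regions ran from 1.03 to 1.46. The median region of a library ranged from 1.02 in male ethanol replicate 6 to 1.49 in male ethanol replicate 4. LINE-1 regions had a median fold of 1.20 and other regions 1.28. H3K9me3 islands covered on average 98.5% of a region's length, and 39 regions were covered for under 50% of their length. 1262 regions (22.7%) lay mostly in protein-coding gene bodies, less than the 40.3% of chromosomes 1 to 19 that gene bodies take up. The other 4304, called between genes here, lay mostly outside them, 4283 with no base in a protein-coding gene body. These regions rest on all listed islands, without an FDR limit. With islands of FDR at most 0.05 only 104 regions were covered in all 22 libraries, and these were not classed here. In islands of FDR at most 0.01, 11 of the 22 libraries had a gene-body share above the 40.3%. By their place and H3K9me3 cover, the regions of all listed islands went against what is known of H3K36me3. Whether the antibody or a label accounts for this was not tested, so each value is that of libraries labelled H3K36me3, and the regions are called here by their rule, regions covered in all libraries.

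Ethanol and water pools were compared region by region to ask where adolescent binge ethanol altered H3K36me3. No region passed an adjusted p of 0.05 in edgeR's quasi-likelihood test with sex as a blocking term (0 of 5396, 0.0%, smallest adjusted p = 0.878). At an unadjusted p of at most 0.05, the threshold the study used for H3K9me3, 188 of the 5396 regions that passed the filter on low counts were called (3.48%), 80 with more reads in ethanol (1.48%) and 108 with fewer (2.0%). A threshold of 0.05 passes about 1 in 20 regions where nothing differs. DESeq2 called 131 and also none after adjustment. In no region were the ethanol and water libraries free of overlap (0 of 5396, 0.0%). Without the 3 libraries that stood apart 206 regions were called, 0 after adjustment. Differences were small throughout. The 95% interval of the log2 fold change lay within ±0.585, a 1.5-fold change, in 5157 regions (95.6%), and only 17 regions had an estimate beyond it. The split of calls by direction rests on the scaling. With TMM factors 42.6% of the called regions were higher in ethanol, with plain region totals 97.2% of 428, and with all listed islands as library size 67.9% of 109.

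By kind of region the share called went from below to above the 3.48% of all regions. Of the LINE-1 regions 139 of 4475 tested were called (3.11%), and of the other regions 49 of 921 (5.32%). Within LINE-1, 87 of 2607 regions centred on the first frame were called (3.34%) and 47 of 1637 on the second (2.87%). In gene bodies 59 of 1230 regions were called (4.80%), 20 of them higher in ethanol, and between genes 129 of 4166 (3.10%). Regions in gene bodies that did not align to LINE-1 had 21 of 290 called (7.24%), 4 of them higher. Input reads alone called as many or more here, 22 in this class and 59 among all regions outside LINE-1. They also called more between genes (135) and in the second frame (54). They called fewer in LINE-1 regions (124), the first frame (61) and gene bodies (48). Among regions with a mean fold over input of at least 1.5, 14 of 177 tested were called (7.91%) and 3 of these were higher. Among those with H3K9me3 cover under 50% 4 of 38 were called (10.5%), 0 of them higher. Input reads alone called 10 regions in the former class and 3 in the latter. None of these classes was tested against another.

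All 8 regions of smallest p among those higher in ethanol were LINE-1 copies. Values are ChIP reads in CPM, that is, scaled to a library's TMM-corrected total of reads in the regions. The region of smallest p, chr6:70309201-70310000, lies between genes 482632 bp from the start of Rpia (ENSMUSG00000053604.5), which encodes an isomerase of the pentose phosphate pathway. The ethanol libraries ran from 30.3 through a median of 34.5 to 45.4 CPM and the water libraries from 21.7 through 26.3 to 32.2. All 12 ethanol libraries were above the water median and 8 were above every water library, yet the groups overlapped and the adjusted p was 0.878. Among the alternatives run, voom with sample quality weights gave this region an adjusted p of 0.0358. The log2 fold change was 0.45 (SE 0.11, 95% interval 0.23 to 0.67), with 0.43 in males and 0.47 in females. Input reads of the region differed by 0.13 and the ChIP to input ratio by 0.30. H3K36me3 barely exceeded input there, with a mean fold of 1.08.

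The region at chr9:16858401-16859400, between genes near Fat3, which encodes an atypical cadherin, went from 41.5 through 47.9 to 82.5 CPM in ethanol and from 31.9 through 41.5 to 47.8 in water. Its log2 fold change was 0.45 (SE 0.12, adjusted p = 0.905). 6 ethanol libraries exceeded every water library and the remaining ones lay among them. Near Ppp4r2, a regulatory subunit of protein phosphatase 4, chr6:101008601-101010600 had 72.7, 92.0 and 107 CPM as lowest, median and highest ethanol values. The water values were 63.2, 74.4 and 99.5, and the log2 fold change was 0.26 (SE 0.07). This copy is 99.7% identical to the element over its aligned length. Near Fxr1, a gene for an RNA-binding protein of the fragile X family, chr3:33933801-33935200 went from 46.5 through 61.7 to 79.2 CPM in ethanol and from 41.9 through 48.1 to 56.3 in water.

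A single one of the 8 lay in a gene. It was chr19:31724401-31725600, in an intron of Prkg1 (minus strand), the cGMP-dependent protein kinase, 40.0 kb from the gene's start. It had 48.3, 60.3 and 79.2 CPM in ethanol and 40.3, 49.8 and 60.0 in water, a log2 fold change of 0.29 (SE 0.09), with 0.17 in males and 0.41 in females. Its mean fold over input, 1.59, was the highest of the 8. The other 3, near Syt1 (the calcium sensor of synaptic vesicle release), St8sia6 (a sialyltransferase) and Mms22l (a replication fork repair factor), had log2 fold changes of 0.33, 0.32 and 0.30. Their group ranges overlapped, and each had 11 of 12 ethanol libraries above the water median.

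Of the 8 regions of smallest p among those lower in ethanol 6 were LINE-1 copies. The exceptions lay near Pelp1, a coactivator of nuclear receptors, and near Diaph3, an actin-nucleating formin. At chr11:70381201-70381600, near Pelp1, the ethanol libraries went from 11.1 through 15.2 to 17.8 CPM and the water libraries from 14.5 through 18.4 to 32.3. Every ethanol library was below the water median and 5 were below all water libraries, but the groups overlapped. The log2 fold change was -0.57 (SE 0.14, 95% interval -0.86 to -0.28, edgeR adjusted p = 0.878), and input reads differed by -0.36. The region near Diaph3, chr14:86199001-86199200, is a single window with a mean fold over input of only 0.45. There the ethanol libraries ran from 46.6 through 94.9 to 244 CPM and the water libraries from 76.4 through 201 to 405, and the difference of -1.002 (SE 0.271) in ChIP reads stood beside one of -0.95 in input reads.

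Near Vmn1r59, a vomeronasal receptor gene, chr7:5443001-5443600 had 19.5, 21.6 and 33.0 CPM in ethanol and 16.6, 36.6 and 49.2 in water. All ethanol libraries were below the water median, but the lowest value of all belonged to female water replicate 3. The log2 fold change was -0.55 (SE 0.14) in ChIP reads and -0.49 in input reads, which leaves -0.05 in their ratio. Near Mc4r, the melanocortin receptor that curbs appetite, chr18:66941201-66942200 had 33.7, 36.4 and 54.2 CPM in ethanol and 37.6, 49.9 and 71.4 in water. Its difference was -0.42 (SE 0.11) in ChIP and -0.29 in input reads.

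The region in Focad, a gene for a focal adhesion protein, was the one of the 8 in a gene body (chr4:88285601-88286200, plus strand, intronic, at 0.605 of the gene's length). It went through a median of 23.5 to 34.8 CPM in ethanol and from 19.9 through 36.3 to 48.5 in water, and the lowest ethanol library was the lowest of all. The log2 fold change was -0.49 (SE 0.14) in ChIP reads, -0.18 (SE 0.14) in input reads and -0.32 in the ratio. The region was chosen by its ChIP reads, and the ChIP and input differences were not tested against each other. Near Ghitm (an inner mitochondrial membrane protein), Selenot (a selenoprotein of the endoplasmic reticulum) and Zwint (a kinetochore protein) the log2 fold changes were -0.34, -0.29 and -0.30, and in input reads -0.23, -0.16 and -0.21. None of the 16 regions passed adjustment.

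**Figure D2:**
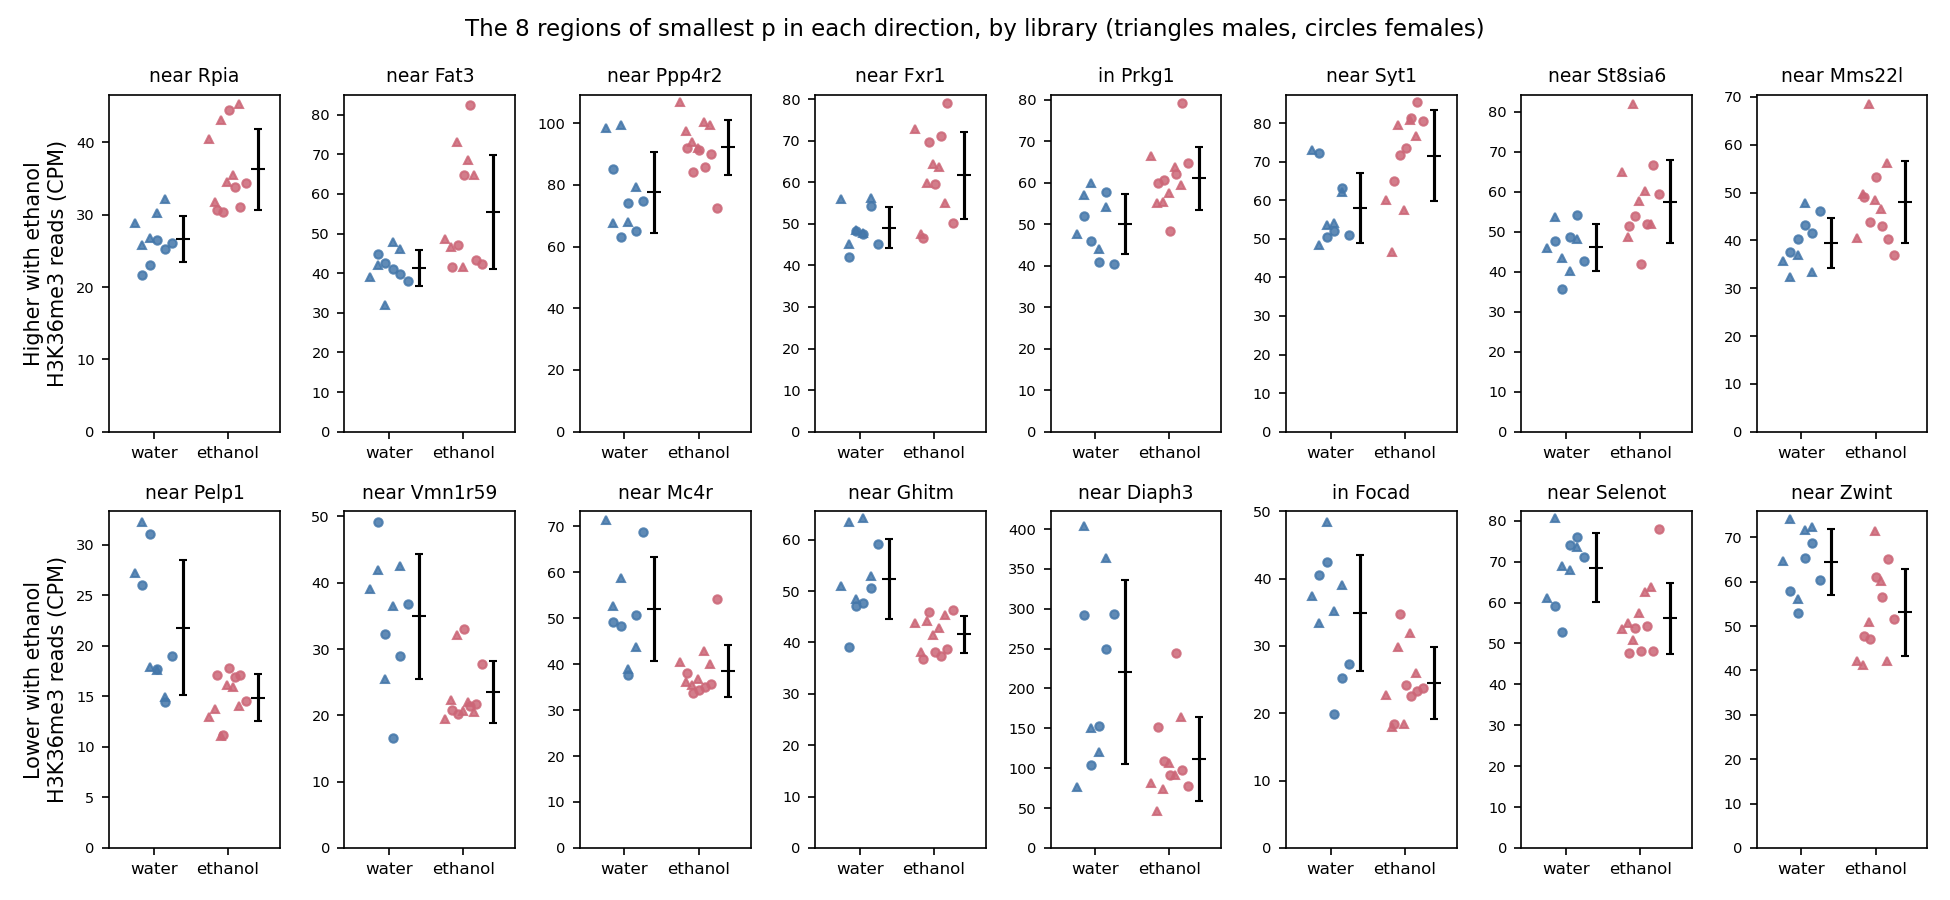
H3K36me3 reads in CPM (vertical axis, each panel from 0) of every library in the 8 regions of smallest p higher with ethanol (upper row) and the 8 lower (lower row), with the group mean and SD as bars (12 ethanol and 10 water libraries). Ethanol and water libraries overlap in all 16 panels, as near Rpia, where the highest water library, 32.2, exceeds the lowest ethanol library, 30.3.

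Input reads from the same lists were put through the same fit, since input carries no antibody signal. They gave 183 called regions of 5384 (3.4%), 79 higher in ethanol, nearly as many as the ChIP reads, and 0 after adjustment (smallest adjusted p = 0.999, DESeq2 120 called and 0 adjusted). Of the 188 called ChIP regions 168 differed with the same sign in input reads, and 45 were called in both. ChIP and input reads were shared out over the same islands, so their differences are not independent. The same-sign share over all regions was not counted, so whether called regions differ in this from the rest is not known. Across 5382 regions the log2 fold changes of ChIP and input reads had a Pearson correlation of 0.59, given as a description because both come from the same pools and the same islands. In a fit of the ChIP to input ratio 165 of the 188 kept their sign and 42 were called. That fit called 305 of 5566 regions in all (5.48%). The ratio holds the ChIP reads by which the 188 were chosen, so it is no separate check of them.

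The 22 H3K9me3 libraries of the same design were read over the same regions. 130 of 5048 regions were called (2.58%), 61 higher in ethanol, and 0 after adjustment (smallest adjusted p = 1.0, DESeq2 101 called and 0 adjusted). Of 166 called H3K36me3 regions with an H3K9me3 value, 96 differed with the same sign and 6 were called for both marks. The log2 fold changes of the marks had a Pearson correlation of 0.04 across 5000 regions, as a description.

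**Figure D3:**
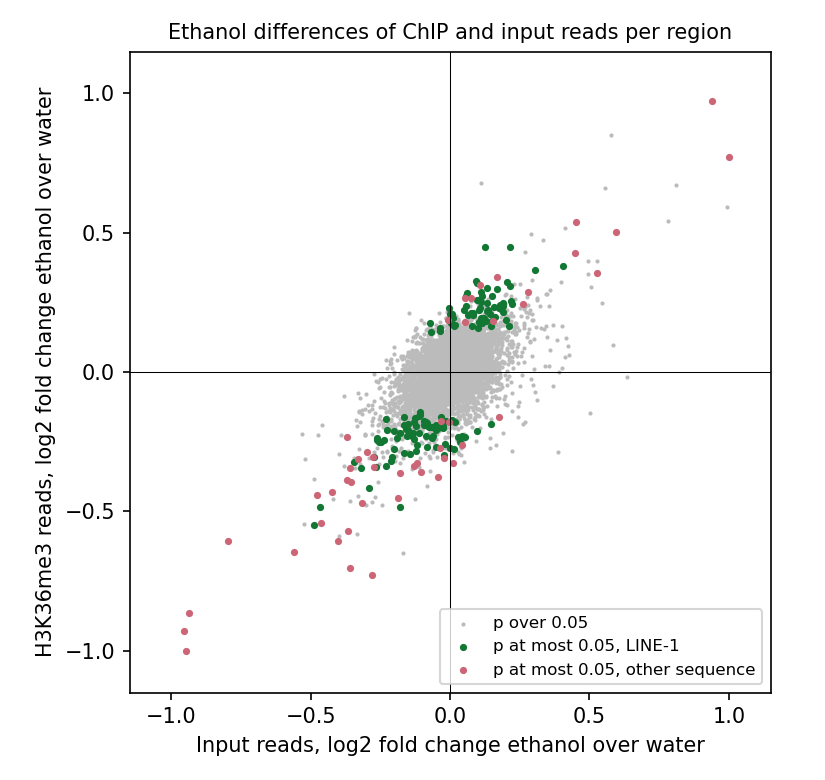
Log2 fold change of ethanol over water of H3K36me3 ChIP reads (vertical axis) against that of input reads (horizontal axis), 1 point per region. Called regions (unadjusted p of at most 0.05, coloured by LINE-1 or other sequence) lie along the rising diagonal with the rest, with the extremes at both ends of the 2 axes.

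Regions were then summed over protein-coding gene bodies to compare genes. Of 863 genes with some region length, 673 had at least 1 kb and passed the filter. 35 of 673 were called at an unadjusted p of at most 0.05 (5.2%), 18 of them higher in ethanol, and 0 passed adjustment in edgeR's test (smallest adjusted p = 0.647, DESeq2 26 called and 0 adjusted). Without the 3 libraries that stood apart 51 were called, 18 of them higher. No gene had an estimate beyond ±0.585. For many of the genes named below the value is that of a single region that aligned to LINE-1.

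Among the genes higher in ethanol, Prkg1 had the smallest p, from the same intronic copy as above. Its values, in CPM of the reads over gene-body regions, went from 130 through 165 to 213 in ethanol and from 108 through 135 to 161 in water, and its log2 fold change was 0.30 (SE 0.09, adjusted p = 0.647). Sgcd, which encodes delta-sarcoglycan, drew on 4 LINE-1 copies and differed by 0.13 (SE 0.05). Its libraries ran from 711 through 789 to 864 in ethanol and from 651 through 715 to 786 in water. Nckap5 differed by 0.22, with all 12 ethanol libraries above the water median. The other 5 genes of the rule, Mettl25, 4930469K13Rik, Sult2a2 (a sulfotransferase), Auts2 (a regulator of neuronal transcription) and Myo3b (an unconventional myosin), had differences of 0.16 to 0.22, and the ranges of ethanol and water overlapped in all of them.

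Among the genes lower in ethanol, E030030I06Rik (-0.42, SE 0.13) and Tyw3 (-0.35, SE 0.11), which acts in the modification of a phenylalanine tRNA, rested on regions outside LINE-1. Tyw3 had 281, 502 and 575 in ethanol and 326, 606 and 729 in water, and every ethanol library was below the water median. E030030I06Rik had 377, 510 and 632 in ethanol and 384, 608 and 1028 in water. In the ratio to input its difference was 0.02, so the input reads of this gene differed as its ChIP reads did. Snap47, which encodes a SNARE protein, had 120, 178 and 234 in ethanol and 175, 198.6 and 247 in water (-0.27, SE 0.09). Heca, Gm3435, Lmbrd1 (lysosomal cobalamin transport), Cd46 (a complement regulator) and Pitpnb (a phosphatidylinositol transfer protein) differed by -0.27 to -0.21. With every listed island of a gene body counted in place of the shared regions, the sign turned for Prkg1 (-0.004), Heca (0.15), E030030I06Rik (0.08), Lmbrd1 (0.10) and Cd46 (0.21).

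Of 20807 protein-coding genes 863 had a region, among them 10 of 40 synaptic and neuronal, 9 of 25 glutamate receptor and 7 of 30 potassium channel genes, and the counts called are read against the 5.2% of all genes. Of the 40 synaptic and neuronal genes 8 could be tested and 0 were called, with a median log2 fold change of 0.04 against 0.00 over all 673 genes. Cntnap2, a neurexin-family adhesion gene, differed by 0.03 (SE 0.05) and Dlg2, a postsynaptic scaffold gene, by 0.02 (SE 0.05), and both have several LINE-1 copies. Of 25 glutamate receptor genes 8 could be tested and 0 were called, from -0.16 in Grin3a, an NMDA receptor subunit, to 0.07 in Grm5, a metabotropic receptor. Of 30 potassium channel genes 6 could be tested and 1 was called, Kcnip1, a channel-interacting calcium sensor, with 0.18 (SE 0.08, adjusted p = 0.898). It ran from 142 through 189 to 218 in ethanol and from 141 through 157 to 190 in water. Of 14 ephrin receptor genes 3 could be tested and 0 were called, with Epha3 at -0.27 (SE 0.15). Neither of 2 GABA-A receptor genes nor of 2 astrocyte genes was called. Of the 20 genes of ethanol metabolism and response Aldh1a1, an aldehyde dehydrogenase, could be tested and differed by 0.00 (SE 0.10). With all listed islands of the gene body, where 120 of 1242 genes were called (9.66%), Kcnip1 was no longer called, with 0.05 (SE 0.28, unadjusted p = 0.853, edgeR adjusted p = 0.957), and the signs of some members of these lists turned. Grin3a then differed by 0.52 (SE 0.19, unadjusted p = 0.00998, edgeR adjusted p = 0.370), and in the ratio to input by 0.15 over the regions. Cntnap2 differed by 0.23 (SE 0.11, unadjusted p = 0.0448, edgeR adjusted p = 0.497).

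No gene of the myelin and oligodendrocyte, microglia and endothelium, H3K36 enzyme, housekeeping or other-tissue lists could be tested on the regions, because none had 1 kb of region. With all listed islands 2 genes of the myelin list (St18 with 0.09 and Sox6 with 0.34) and 2 of the microglia and endothelium list (Flt1 and Itgam, both with -0.09) could be tested, and 0 were called. Of 4 vomeronasal receptor genes 1 was called, Vmn2r53 with 0.12 (SE 0.06), and of 2 olfactory receptor genes 0. With all listed islands Vmn2r53 was at -0.01 and 4 of 13 vomeronasal genes were called, all higher in ethanol (of all genes 4.27% were called higher), such as Vmn2r13 with 0.73 (SE 0.23, edgeR adjusted p = 0.289) and Vmn2r112 with 0.74 (SE 0.33, edgeR adjusted p = 0.474). Of 23 genes with Zfp symbols, a list added after values had been seen, 1 was called, Zfp981 with 0.09 (SE 0.04). With all listed islands 4 of 35 were called, 3 of them higher in ethanol, and Zfp369 differed by -0.65 (SE 0.19, edgeR adjusted p = 0.245). These families have near-identical members whose reads may be split among them.

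Sex was tested as an interaction, to ask whether ethanol acted differently in males and females. 188 of 5400 regions were called (3.48%), 100 with a higher effect in females (without TMM factors 7.33% of 273), and 0 passed adjustment (smallest adjusted p = 0.190, DESeq2 132 called and 0 adjusted). The region of smallest p lies in an intron of Sprr2a2, a gene for a small proline-rich protein of the skin barrier, at chr3:92230001-92231200 on the plus strand. In males the ethanol libraries ran from 44.3 through 57.7 to 62.5 CPM, and the 5 water libraries had 49.3, 40.9, 49.8, 45.3 and 49.4. In females the ethanol libraries ran from 44.1 through 46.1 to 48.3, and the 5 water libraries had 57.8, 77.0, 65.3, 63.3 and 66.4. Female water libraries were thus above all female ethanol libraries, while the male groups overlapped. The log2 fold change was 0.26 in males and -0.53 in females, a difference of -0.78 (SE 0.15, edgeR adjusted p = 0.190). Without the 3 libraries that stood apart it was -0.90 with an adjusted p of 0.0388, the 1 region to pass among 212 called. It passed in no other interaction fit that was run, and this choice of libraries was made after the data were seen.

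The next region, chr4:145486401-145487600, lies 23.8 kb from the start of Zfp990 in a cluster of zinc finger genes. The male ethanol libraries ran from 39.1 through 50.01 to 59.3 CPM, and the male water libraries had 88.3, 100.04, 93.1, 100.7 and 67.8, all above them. In females the ethanol libraries ran from 52.8 through 75.4 to 83.3 and the water libraries had 44.8, 69.0, 87.5, 48.8 and 53.3. The sexes differed by 1.01 (SE 0.22, edgeR adjusted p = 0.339), from -0.83 in males and 0.18 in females. In a fit of the males alone it was the 1 region with an adjusted p under 0.05 (adjusted p = 0.0281), and without female water replicate 3 the sex difference was 1.19 (adjusted p = 0.0331). The third, chr11:54140001-54140800 near P4ha2, a collagen prolyl hydroxylase, had a male water library at 353 CPM against 179 to 214 in the other 4, and an adjusted p of 1.0.

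Whole-library levels were compared next, with exact permutation of the treatment labels within sex (213444 arrangements, 2-sided) and adjustment over 7 levels. Of these 7, with both sexes together, the share of island length in protein-coding gene bodies, where H3K36me3 usually lies, had the smallest p. It ran from 21.6 through a median of 28.2 to 36.3% in ethanol and from 27.8 through 34.4 to 41.7% in water. The means were 27.9% ± 5.26 (SD, n = 12) and 34.2% ± 4.89 (SD, n = 10), a difference of -6.33 percentage points (exact permutation p = 0.0102, adjusted p = 0.0712). The ranges overlapped, with 2 of the 10 water libraries above every ethanol library, and the adjusted p missed 0.05. The difference was -8.03 points in males (exact p = 0.0281) and -4.62 in females (exact p = 0.212), and these did not differ from each other by the permutation test of the interaction (p = 0.512). Without the 3 libraries that stood apart it was -6.21 points (exact p = 0.0261). Every ethanol library and 8 of 10 water libraries were below the genome's own share of 40.3%.

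In islands with an FDR of at most 0.01, called enriched below, the gene-body share ran from 20.98 through 34.3 to 57.5% in ethanol and from 31.3 through 50.2 to 68.4% in water. The difference was -14.0 points (exact permutation p = 0.0170, adjusted over 5 levels of these islands p = 0.0850) and -14.1 points without the 3 libraries. In males the 5 water libraries had 45.5, 55.3, 59.4, 43.5 and 54.9%, and 5 of the 6 ethanol libraries were below all of them, with male ethanol replicate 5 at 57.5%. The difference was -21.2 points in males (exact p = 0.0216) and -6.74 in females (exact p = 0.403). These did not differ from each other by the permutation test of the interaction (p = 0.233). 8 of 12 ethanol libraries and 3 of 10 water libraries were below the genome share. The depth of ChIP relative to input, which could move such a share, was 0.905 ± 0.241 (SD, n = 12) in ethanol and 0.891 ± 0.197 (SD, n = 10) in water; its part in the difference was not tested.

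**Figure D4:**
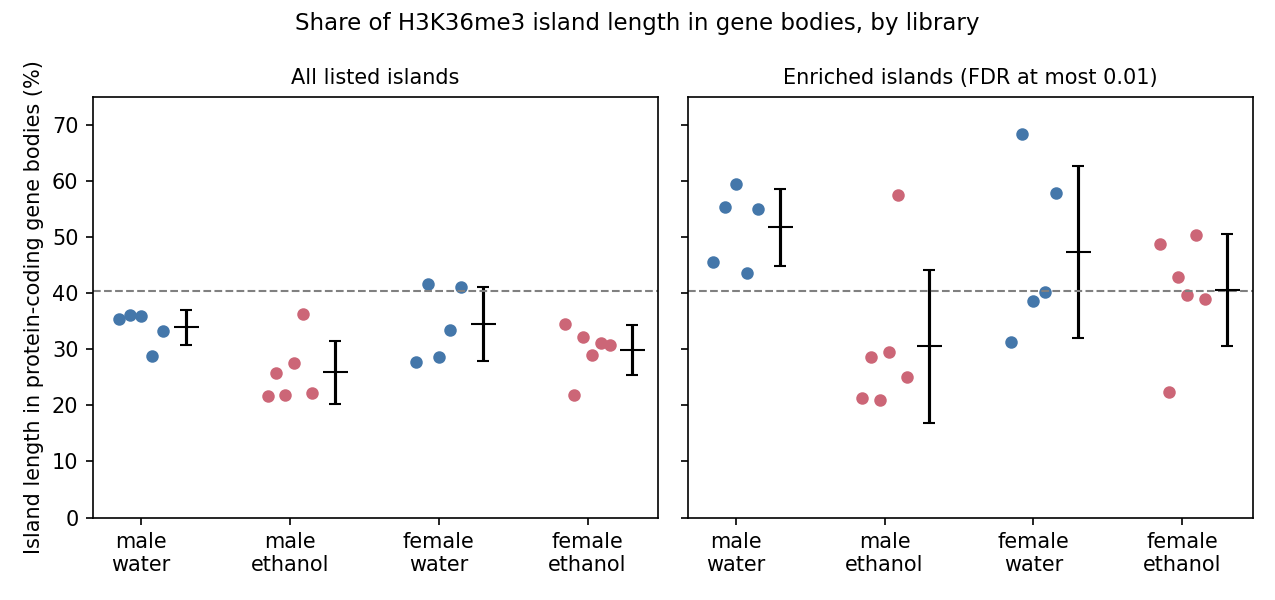
Share of H3K36me3 island length in protein-coding gene bodies (vertical axis, percent) of each library by sex and treatment, for all listed islands and for enriched islands, with group mean and SD and the genome's share of 40.3% as a dashed line. Ethanol libraries sit lower in males, 25.8% against 33.9% on average over listed islands, and overlap with water in both sexes.

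Of the listed islands' other levels, with both sexes together, each had a larger p. Within the regions, 1 level was each library's median log2 ChIP to input ratio of genic regions minus that of intergenic ones. It differed by -0.02 (0.02 ± 0.03, SD, n = 12, against 0.04 ± 0.02, SD, n = 10, exact permutation p = 0.0456, adjusted p = 0.160). The number of islands, the Mb covered, the ChIP reads, the reads per kb and the share of reads in the regions had exact p-values from 0.632 to 0.965. Among enriched islands, the Mb covered differed by -13.7 in females (31.6 ± 5.35, SD, n = 6, against 45.3 ± 6.85, SD, n = 5, exact p = 0.00216, the smallest that 6 against 5 can give) and by 8.38 in males (exact p = 0.398). The test of this sex difference gave p = 0.0376 (exact permutation, adjusted p = 0.188). The ChIP reads of enriched islands differed by -0.417 M in females (exact p = 0.0130) and by 0.00948 M in males (exact p = 0.978). The test of that sex difference gave p = 0.221 (exact permutation).

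To see where the mark lies over genes, the cover of gene bodies by enriched islands was summed for each gene list. Over all 20807 protein-coding genes it was low. It ran from 0.191 through 1.36 to 2.05% of gene-body length in ethanol and from 0.761 through 1.81 to 3.29% in water. The difference, a level added after the data were seen and not adjusted, was -0.662 points (exact permutation p = 0.0155, -0.631 points and p = 0.0290 without the 3 libraries). It was -0.434 in males and -0.891 in females. Male ethanol replicate 6 was the lowest library here, and it alone was lowest in 9 of the 15 gene lists.

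The lists differed in cover. Genes for H3K36 enzymes and readers, a list that also holds the H3K9 methyltransferase genes Ehmt1 and Ehmt2, were covered for a median of 4.55% in water (1.21 to 8.68%) and 2.35% in ethanol (0.0311 to 5.36%), housekeeping genes for 1.73% and 0.663%, and genes of other tissues, such as liver and muscle, for 0.322% and 0.0%. Olfactory receptor genes had 0.507% in water and 0.678% in ethanol, and vomeronasal receptor genes 1.22% and 1.95%. The median was lower in ethanol in 12 of the 15 lists and higher in the potassium channel, olfactory and vomeronasal lists, with overlapping ranges in each. The Zfp genes had 4.33% in water and 3.50% in ethanol. By group means, ethanol was below water in 13 of the 15 lists in females and in 6 of the 15 in males. In males the astrocyte list had a mean of 1.53% in ethanol and 0.751% in water, and in females 0.912% and 1.60%. The synaptic list had 0.794% and 0.737% in males and 0.687% and 1.09% in females. No list was tested on its own, and the difference between the sexes was not tested.

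Single genes of the lists, picked after their values had been seen, show how variable the cover was. Ehmt2, an H3K9 methyltransferase gene, was covered for a median of 39.1% in water (0.0 to 69.2%) and 7.05% in ethanol (0.0 to 41.0%). Polr2a, the largest subunit of RNA polymerase II, had 11.4% in water (4.88 to 22.0%) and 5.29% in ethanol (0.0 to 9.76%). Supt6, the elongation factor gene SPT6, had 13.3% and 1.53%, and Nsd1, an H3K36 methyltransferase gene, 11.8% and 0.921%. Setd2 itself had 2.56% in water (0.0 to 13.7%) and 0.0% in ethanol (0.0 to 11.2%). At least 1 library of each group had no enriched island in Ehmt2, Supt6, Nsd1 or Setd2, so the values cannot be read as presence or absence of the mark in a group. Members of other lists went either way. Zfp369 was covered for a median of 31.9% in water (11.02 to 63.8%) and 14.96% in ethanol (0.0 to 35.4%). Zfp980 was covered for a median of 34.0% in ethanol (8.28 to 76.3%) and 5.62% in water (0.0 to 39.1%), and Zfp990 for 31.0% and 7.04%. Among the vomeronasal genes Vmn2r112 had 17.2% in ethanol (0.0 to 90.9%) and 0.0% in water (0.0 to 3.03%), and Vmn2r111 had 15.3% and 2.43%.

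An enriched island lay in the body of 11817 genes in at least 1 library, of 3384 in at least 11, and of 63 in all 22. Of the synaptic and neuronal genes 35 of 40 (87.5%) reached 11 libraries, of all protein-coding genes 16.3%, of olfactory receptor genes 0.798%, and of genes of other tissues 0.0%. Long genes have more room for an island, and this count does not correct for length. Among the genes with an enriched island in all 22, AW822073 and Duxf3, near each other on chromosome 10, were covered whole in each library. Sfi1, a centrosome gene, was covered for a mean of 80.2% and Zfp992 for 50.6%, and 5 of the 63 had Zfp symbols.

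**Figure D5:**
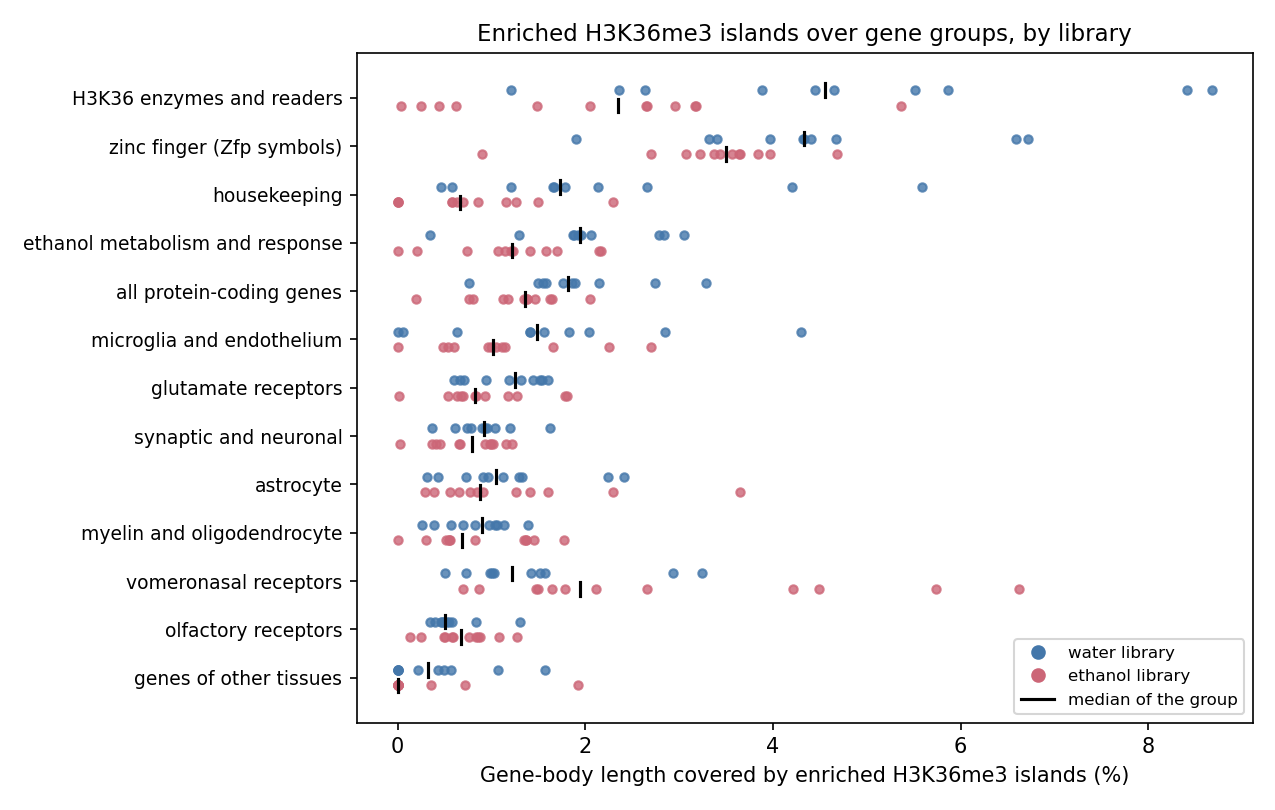
Percent of gene-body length covered by enriched H3K36me3 islands (horizontal axis) for each gene group, 1 point per library (water blue, ethanol red) and the median of each group as a bar. Water medians exceed ethanol medians for H3K36 enzymes and readers (4.55 against 2.35%) and housekeeping genes, ethanol medians exceed water medians for vomeronasal and olfactory receptors, and all ranges overlap.

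From the start to the 3′ end of gene bodies the fold over input, known only within listed islands, rose only slightly in most libraries. For 13520 genes of at least 10000 bp, the fold over input in the tenth of the gene body nearest the 3′ end was divided by that in the tenth nearest the start. The ratio exceeded 1 in 19 of 22 libraries, in all 10 water libraries and in 9 of the 12 ethanol ones. It ran from 0.988 through 1.034 to 1.139 in ethanol and from 1.007 through 1.095 to 1.187 in water. Where the ratio exceeded 1, the direction is that known for H3K36me3. The change was small in every library, and the treatments were not tested on it. The fold did not rise steadily. With gene bodies cut into 10 parts, the fold in part 6 was below that in parts 5 and 7 in every library. The share of length under listed islands was highest inside the gene body, in part 3 to part 9 depending on the library. In some libraries that share was lower at the 3′ end than at the start, in others higher.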

How the data were processed

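H3K36me3 ChIP-seq of 22 prefrontal cortex pools was analysed from the SICER island lists deposited by the authors, 1 per library. Per the labels the reads were checked with FastQC, trimmed with cutadapt and aligned with Bowtie2 2.4.1 to GRCm38/mm10, and only the H3K9me3 processing is described further by the study. Each deposited list gives the authors' ChIP and input read counts per island, the ratio of ChIP to input, and a p-value with an FDR, all unfiltered. The ratio is scaled by 1 constant per library, except in the few islands with no input reads. The constant varied for this reason in male ethanol replicate 4 and female ethanol replicate 1. The island window was 200 bp and the gap 600 bp. Island sums were 1.60 to 4.57 M ChIP reads per library, and these listed reads, not whole libraries, are the depth known here.

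Island counts were shared out over the regions by overlap and rounded. Regions were tested with edgeR 4.0.16 (R 4.3.3; filterByExpr, TMM, quasi-likelihood, sex and treatment as terms) and Benjamini-Hochberg adjustment, and genes likewise from at least 1000 bp of region. SE and intervals were derived from edgeR's p. The ChIP to input ratio took a pseudocount of 0.5 reads in limma 3.58.1. Library levels were tested by exact permutation within sex. Gene models were GENCODE vM21 (20807 protein-coding genes), and regions were aligned with blastn 2.17.0. The scripts were tested on simulated data.

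Named are the 8 regions and the 8 genes of smallest p in each direction, the 3 regions of smallest interaction p and up to 4 members per gene list. The regions, lists and tests were chosen with earlier results of these data known. DESeq2 1.42.0, voom, other scalings, filters, islands and terms, and leaving out single libraries were tried as alternatives. Sex chromosomes were not used here.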

Additional observations from a re-analysis of the deposited data

Results flagged for a closer look

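Each group of 5 or 6 libraries was checked for a library far from the others of its group (Dixon's criterion at 95%), for the library levels, named regions and named genes. Of 168 groups over 42 quantities 13 held such a library, where chance flags about 1 in 20.

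Among the library levels, the Mb covered by listed islands was 61.6 in female water replicate 4, against 98.4 to 109 in the other 4. The share of island reads in the regions was 41.7% in male ethanol replicate 4, against 17.2 to 23.5% in the other 5, and 38.2% in female water replicate 4, against 18.8 to 22.998% in the other 4.

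Among the regions, the values in CPM were 44.5 near Rpia in female ethanol replicate 3 (others 30.3 to 34.4), 32.1 near Vmn1r59 in male ethanol replicate 3 (others 19.5 to 22.2), 54.2 near Mc4r in female ethanol replicate 6 (others 33.7 to 38.0) and 34.8 in Focad in female ethanol replicate 2 (others 18.4 to 24.1). Near Selenot female ethanol replicate 6 had 77.97 (others 47.8 to 54.2), and near P4ha2 male water replicate 1 had 353 (others 179 to 214). Near Rpia the library farthest from its group lay on the side of the ethanol difference, and near Vmn1r59, Mc4r, Focad and Selenot it lay on the water side.

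Among the genes, in CPM over gene-body regions, Nckap5 had 212 in male water replicate 5 (others 166 to 175), Lmbrd1 had 158.0 in male ethanol replicate 4 (others 113 to 130) and 206 in female water replicate 1 (others 141 to 152), and Snap47 had 234 in female ethanol replicate 5 (others 150.4 to 181).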

How the results depend on the processing

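Of the 188 regions and 35 genes called at an unadjusted p, the counts moved by over 1.5 times under few settings, and the cause was not tested where none is given. Regions numbered 428 without TMM factors (97.2% higher in ethanol, where the median of all regions moved to 0.13), 109 with all listed islands as library size (67.9% higher), 305 in the ChIP to input ratio and 5 of 103 with islands of FDR at most 0.05, where fewer regions could be tested (all higher: in C130026I21Rik and near Vmn1r3, Gm5592, Gm10139 and Gm10772, named after their values were seen). Fitted alone, the 923 regions outside LINE-1 gave 43 calls (58.1% higher), where the fit of all regions called 49 of 921 such regions, 15 of them higher. With regions covered in at least 18 libraries 147 of 14495 were called (1.01%, against 3.48% in the main fit), 59.2% of them higher. Other splits moved to 59.8% higher with the gene-body share as covariate and 63.0% in the 11 libraries kept below. Genes numbered 18 with that covariate and 120 of 1242 with all listed islands; they were 97.0% higher without TMM factors, 29.3% in the ratio and 35.3% without the 3 libraries that stood apart. Of the interaction calls, 65.9% had the higher effect in females with DESeq2 and 7.33% without TMM factors. Input calls fell to 120 with DESeq2.

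After adjustment 1 region passed with voom sample weights (near Rpia, 0.44, adjusted p = 0.0358), 1 in males alone (near Zfp990), 1 in the 11 libraries at or above the genome's gene-body share of enriched islands (in Abca17, adjusted p = 0.00532, with 1 male ethanol library) and 1 interaction without the 3 libraries that stood apart (Sprr2a2). Leaving out the libraries below the genome share of listed islands was not run, since no ethanol library would remain.

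Gene signs turned with all listed islands for Prkg1 (-0.00363), E030030I06Rik (0.076), Heca (0.145), Lmbrd1 (0.096) and Cd46 (0.207), and in the ratio for Sult2a2 (-0.017) and E030030I06Rik (0.015). Of the list genes named, Grin3a turned to 0.52, Vmn2r53 to -0.01, Aldh1a1 to 0.05, Zfp980 to 0.49, Zfp990 to 0.27 and Zfp992 to -0.05 with all listed islands. In females alone the number of islands differed by 3267, the Mb covered by -4.90, the reads per kb by 1.301 and the gene-body share by -4.62. Over all libraries the Mb covered by enriched islands differed by -2.67. The genic minus intergenic log2 difference was -0.030 in males, -0.015 in females and -0.0243 without the 3 libraries, with exact p-values of 0.102, 0.310 and 0.0512.

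Leaving out 1 library at a time gave 173 to 228 regions, 29 to 45 genes, 177 to 214 interactions, 157 to 190 input and 115 to 144 H3K9me3 calls, and 0 to 1 adjusted interactions (near Zfp990 without female water replicate 3). The share of called genes higher in ethanol ranged from 9 of 29 (31.0%) without female water replicate 5 to 18 of 34 (52.9%) without female ethanol replicate 3. The levels ranged from -2660 to 705 islands, -4.11 to 3.56 Mb, -0.254 to 0.121 M reads, -1.75 to -0.0396 reads per kb, -7.37 to -5.43 points of gene-body share (exact p 0.00245 to 0.0242), -3.1 to 0.426 points of reads in regions and -0.0274 to -0.0185 in the genic log2 difference. For the genic difference the exact p ran from 0.0117 to 0.0857, and 16 of the 22 fits were counted as weaker.

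Libraries of different groups with the same replicate number came from different pools by design, and their likeness was described. Over 31 such pairs the correlation of deviations from the group means had a median of -0.01 and none exceeded 0.1. With the replicate block 206 regions, 35 genes, 193 interactions and 195 input regions were called, and adjustment passed 1 input region (near Speer4e).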
